A study of Mus musculus with 16 samples.

Results

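The 9 genes followed here belong to the transforming growth factor beta (TGF-beta) and bone morphogenetic protein (BMP) pathways, and their RNA was measured in alveolar epithelial type II (AT2) cells of newborn mice: the ligands Tgfb1, Tgfb2, Tgfb3 and Bmp4, the receptor Tgfbr2, the inhibitory Smad gene Smad7, and the target genes Id1, Id2 and Id3. They were chosen by annotated symbol, and 9 of 9 were found among the 20725 genes measured, through 30 array features. The feature with the highest mean over the 16 samples stood for each gene. The samples came from pups at postnatal day 3. By the sample titles, the hyperoxia groups were Fgf10+/- pups (n = 2) and wild-type pups (n = 6). The normoxia groups were Fgf10+/- pups (n = 4) and wild-type pups (n = 4). The series text gives 4 samples per group instead. Hyperoxia was 85% oxygen from postnatal day 0 to day 3, and Fgf10+/- pups carry 1 altered copy of Fgf10, a growth factor gene of the lung mesenchyme. The sources used here do not give the nature of the altered allele, the way the AT2 cells were purified, or whether a sample pooled several pups. Since no label says that samples of a group came from separate animals, p-values measure the spread between these samples only.

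TGF-beta ligands are secreted in a latent form, bind the receptor kinases Tgfbr2 and Tgfbr1 once activated, and signal through Smad2 and Smad3. BMP ligands signal through other receptors to Smad1, Smad5 and Smad9, which switch on the Id genes, whose products block basic helix-loop-helix transcription factors. Smad6 and Smad7 are induced by the same pathways and dampen them. In the newborn lung these pathways are known for their part in septation, in the mesenchyme and in epithelial differentiation, and high oxygen is a standard model of arrested alveolar growth.

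All values below are log2 intensities from 1-colour arrays, so a difference of 1 is a 2-fold change, and levels are compared between samples for 1 gene, never between genes. Lists of cell type markers were averaged per sample to describe what else the RNA held. The mean of 13 AT2 markers was 10.36 to 11.38 in Fgf10+/- hyperoxia and 10.43 to 11.47 in wild-type hyperoxia. It was 10.70 to 11.54 in Fgf10+/- normoxia and 11.08 to 11.66 in wild-type normoxia. These means do not give the share of AT2 cells in a sample. The mean of 9 T cell, NK cell and thymocyte markers was 4.37 to 5.29 in the 8 hyperoxia samples, against 6.91, 7.64, 4.70 and 6.56 in Fgf10+/- normoxia replicates 1 to 4 and 5.89, 5.60, 4.96 and 7.76 in wild-type normoxia replicates 1 to 4. Wild-type normoxia replicate 1 stood apart in the mean of 10 smooth muscle and pericyte markers. That mean was 9.22, against 6.50 to 6.94 in the other 3 wild-type normoxia samples. The same sample stood apart in the mean of 10 fibroblast markers, at 10.55 against 8.02 to 8.43. In bulk RNA, fewer cells of a type and less RNA per cell cannot be told apart.

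The stretch of 250 bases before the start of a gene was read for the 6 of 9 genes that the RefSeq promoter table held (build GRCm38.p6), and 3 of them are shown because Id2 and Tgfb1 are the genes whose levels differed most between oxygen conditions, while Id3 is the close relative of Id2 that did not follow it. The Id2 window lies at chr12:25096093-25096342 on the minus strand, the Id3 window at chr4:136143572-136143821 on the plus strand and the Tgfb1 window at chr7:25686752-25687001 on the plus strand. Each is printed 5′ to 3′ along its gene, and capitals mark matches to letters that Smad proteins are known to bind.
Id2: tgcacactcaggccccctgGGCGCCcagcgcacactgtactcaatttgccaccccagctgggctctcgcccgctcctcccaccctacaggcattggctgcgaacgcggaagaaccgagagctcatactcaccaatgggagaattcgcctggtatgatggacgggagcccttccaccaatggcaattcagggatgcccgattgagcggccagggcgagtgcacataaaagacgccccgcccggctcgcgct
Id3: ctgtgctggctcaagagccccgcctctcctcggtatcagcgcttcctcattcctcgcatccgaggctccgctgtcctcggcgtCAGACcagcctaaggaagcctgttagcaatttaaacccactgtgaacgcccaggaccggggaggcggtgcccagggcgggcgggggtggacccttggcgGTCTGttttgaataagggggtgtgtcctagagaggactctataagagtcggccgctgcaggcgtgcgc
Tgfb1: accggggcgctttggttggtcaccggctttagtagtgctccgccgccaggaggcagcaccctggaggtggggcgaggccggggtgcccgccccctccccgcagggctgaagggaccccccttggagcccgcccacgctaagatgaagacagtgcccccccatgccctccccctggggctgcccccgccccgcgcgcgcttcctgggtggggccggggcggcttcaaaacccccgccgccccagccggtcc
The search covered 3 motifs: GGCGCC, which reads the same on both strands, GTCTG with its reverse complement CAGAC on the other strand, and the palindrome GTCTAGAC, which holds none of the other motifs. The Id2 window holds 1 GGCGCC, 231 bases before the start, which 9.59% of 32851 promoter windows of this length also hold and none of the other 5 matched genes does. The Id3 window holds CAGAC at 167 and GTCTG at 68 bases before the start. GTCTG or CAGAC occurs in 42.2% of all windows, and Tgfb2 and Tgfbr2 also hold it. The Tgfb1 window, with a GC content of 75.2% against 62.8% for Id2 and for Id3, holds none of the 3 motifs. GTCTAGAC is in none of the 6 windows and in 0.167% of all. Tgfb3, Smad7 and Id1 had no window and were not searched for any motif.

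Tgfb1 and Id2 were lower in hyperoxia, as the mean of the differences in both genotypes, and no other gene of the 9 passed the test. A gene was called at a Benjamini-Hochberg adjusted p under 0.05 in a limma fit over the 20725 genes and all 16 samples. By that rule 2 of 9 genes fell and 0 rose, where 6.14% of all genes fell, 4.97% rose and 11.1% were called, and 3 of 9 had an unadjusted p under 0.05 (25.8% of all genes). With each array centred on its own median the split over all genes was 1450 higher and 803 lower, beside 1030 higher and 1272 lower as deposited, and the median of all genes moved to 0.04, so differences near 0, such as that of Tgfb3, changed sign with the centring, and Tgfb1 was no longer called (-0.76, adjusted p = 0.0531). As deposited, the median log2 difference of the 9 genes was 0.02, and that of all genes -0.06. Taken alone, neither genotype gave a call among the 9: 0 of 9 in Fgf10+/-, where 2.45% of all genes were called and 3 of 9 genes had an unadjusted p under 0.05 (16.7% of all genes), and 0 of 9 in wild type, where 3.13% were called and 3 of 9 had an unadjusted p under 0.05 (18.2% of all genes). The mean uses the same samples as the 2 single-genotype comparisons, so the 3 are not separate evidence.

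**Figure D1:**
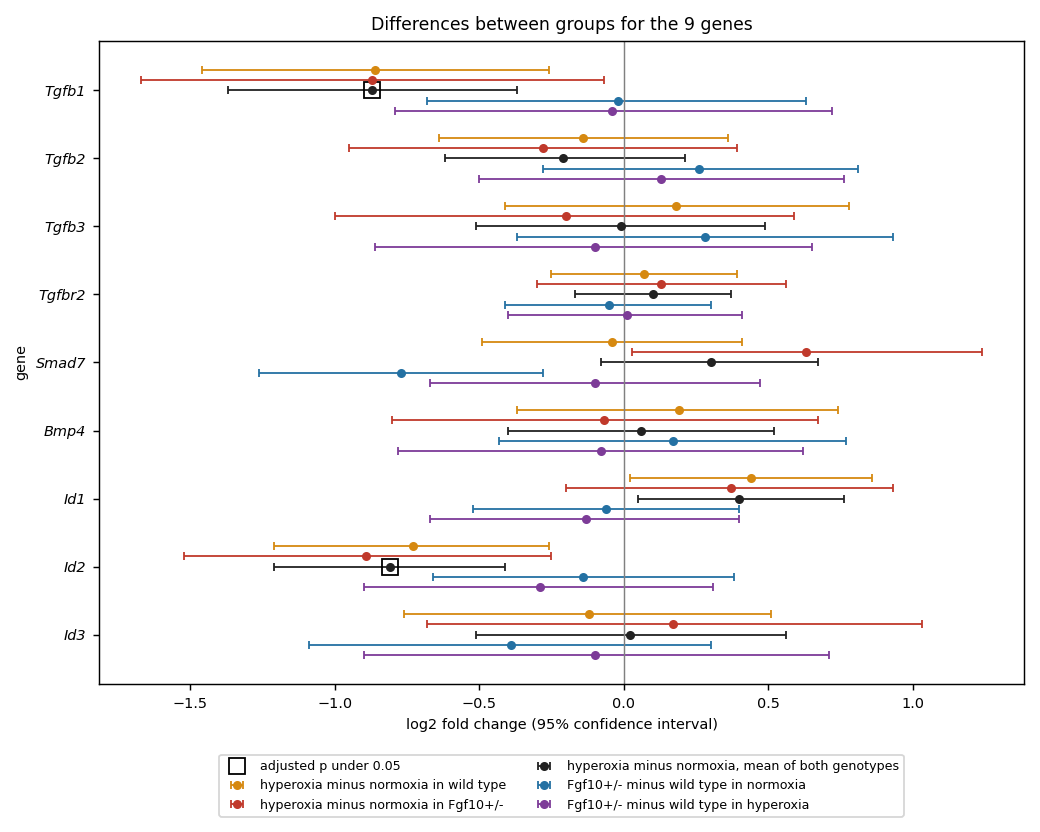
Differences between groups for the 9 genes, in log2 units on the horizontal axis, with points for the fitted difference and bars for its 95% confidence interval. Colours mark the 5 comparisons and squares an adjusted p under 0.05, which only Tgfb1 and Id2 carry, in the mean of both genotypes. Several intervals without a square also exclude 0. Below 0 lie those of Tgfb1 and Id2 for hyperoxia in each genotype, and of Smad7 for Fgf10+/- minus wild type in normoxia. Above 0 lie those of Id1 for hyperoxia in wild type and in the mean, and of Smad7 for hyperoxia in Fgf10+/-.

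The 3 Id genes encode inhibitors of DNA binding and are standard readouts of BMP signalling. Id2, which in the lung also marks distal epithelial tip progenitors, had levels of 10.32 and 9.63 in Fgf10+/- hyperoxia, against 10.84, 10.57, 11.31 and 10.71 in Fgf10+/- normoxia. In wild type its levels ran from 9.66 to 10.82 with a median of 10.27 over 6 hyperoxia samples, against 11.13, 10.92, 10.92 and 11.03 in 4 normoxia samples. Every hyperoxia sample of a genotype thus lay below every normoxia sample of that genotype, which was so for 1 of the 9 genes and for 2.49% of all genes. The mean level was 9.97 ± 0.49 in Fgf10+/- hyperoxia (SD, n = 2) and 10.86 ± 0.32 in Fgf10+/- normoxia (SD, n = 4), a log2 difference of -0.89 (SE 0.30, limma adjusted p = 0.144). It was 10.27 ± 0.40 in wild-type hyperoxia (SD, n = 6) and 11.00 ± 0.10 in wild-type normoxia (SD, n = 4), a log2 difference of -0.73 (SE 0.23, limma adjusted p = 0.0895). The value in Fgf10+/- minus that in wild type was -0.15 (95% interval -0.95 to 0.65). As the mean of both genotypes, Id2 was 1.75-fold lower in hyperoxia (log2 difference -0.81, SE 0.19, 95% interval -1.21 to -0.41, limma with Benjamini-Hochberg adjusted p = 0.0114). Without Fgf10+/- hyperoxia replicate 2, the lowest of the 16 samples, it was -0.64 and not called (adjusted p = 0.101). The difference was -1.03 without the 4 normoxia libraries highest in T cell and thymocyte markers (adjusted p = 0.063) and -1.0 with that marker mean as a covariate (adjusted p = 0.0259). The AT2 marker mean was lowest in Fgf10+/- hyperoxia replicate 2 (10.36) and wild-type hyperoxia replicate 5 (10.43). These samples also had the lowest Id2, at 9.63 and 9.66. Within wild-type normoxia the order was reversed, with Id2 at 11.13 in replicate 1 (AT2 mean 11.08) and 10.92 in replicate 3 (AT2 mean 11.66). The part of AT2 RNA in the Id2 values was not tested.

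Id1, the most used of the BMP target genes, ran the other way without passing the test. Its levels were 10.57 and 10.12 in Fgf10+/- hyperoxia, against 10.01, 9.52, 10.37 and 10.01 in Fgf10+/- normoxia. In wild type they ran from 10.34 to 10.81 with a median of 10.38 in hyperoxia, against 10.34, 9.74, 10.27 and 9.80 in normoxia. The lowest wild-type hyperoxia sample and the highest wild-type normoxia sample were both at 10.34, and the groups overlapped in both genotypes. The log2 difference was 0.40 as the mean of both genotypes (SE 0.17, 95% interval 0.05 to 0.76, unadjusted p = 0.027, limma adjusted p = 0.133). It was 0.17 without the 4 libraries highest in T cell and thymocyte markers.

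Id3, a close relative of Id1, gave no difference larger than the spread between samples. Its levels were 10.09 and 10.08 in Fgf10+/- hyperoxia, against 9.34, 9.77, 10.38 and 10.15 in Fgf10+/- normoxia. In wild type they ran from 9.51 to 10.73 with a median of 10.14 in hyperoxia, against 11.33, 9.99, 10.10 and 9.79 in normoxia. The highest of the 16 samples was wild-type normoxia replicate 1, the sample that stood apart in the means of the smooth muscle and fibroblast markers. The mean of both genotypes differed by 0.02 (95% interval -0.51 to 0.56, limma adjusted p = 0.967), and by 0.20 without that sample. Over the 16 samples the level of Id1 correlated with that of Id2 at r = -0.16 and with that of Id3 at r = 0.50, and Id2 with Id3 at r = 0.26, as a description of samples that share their groups.

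**Figure D2:**
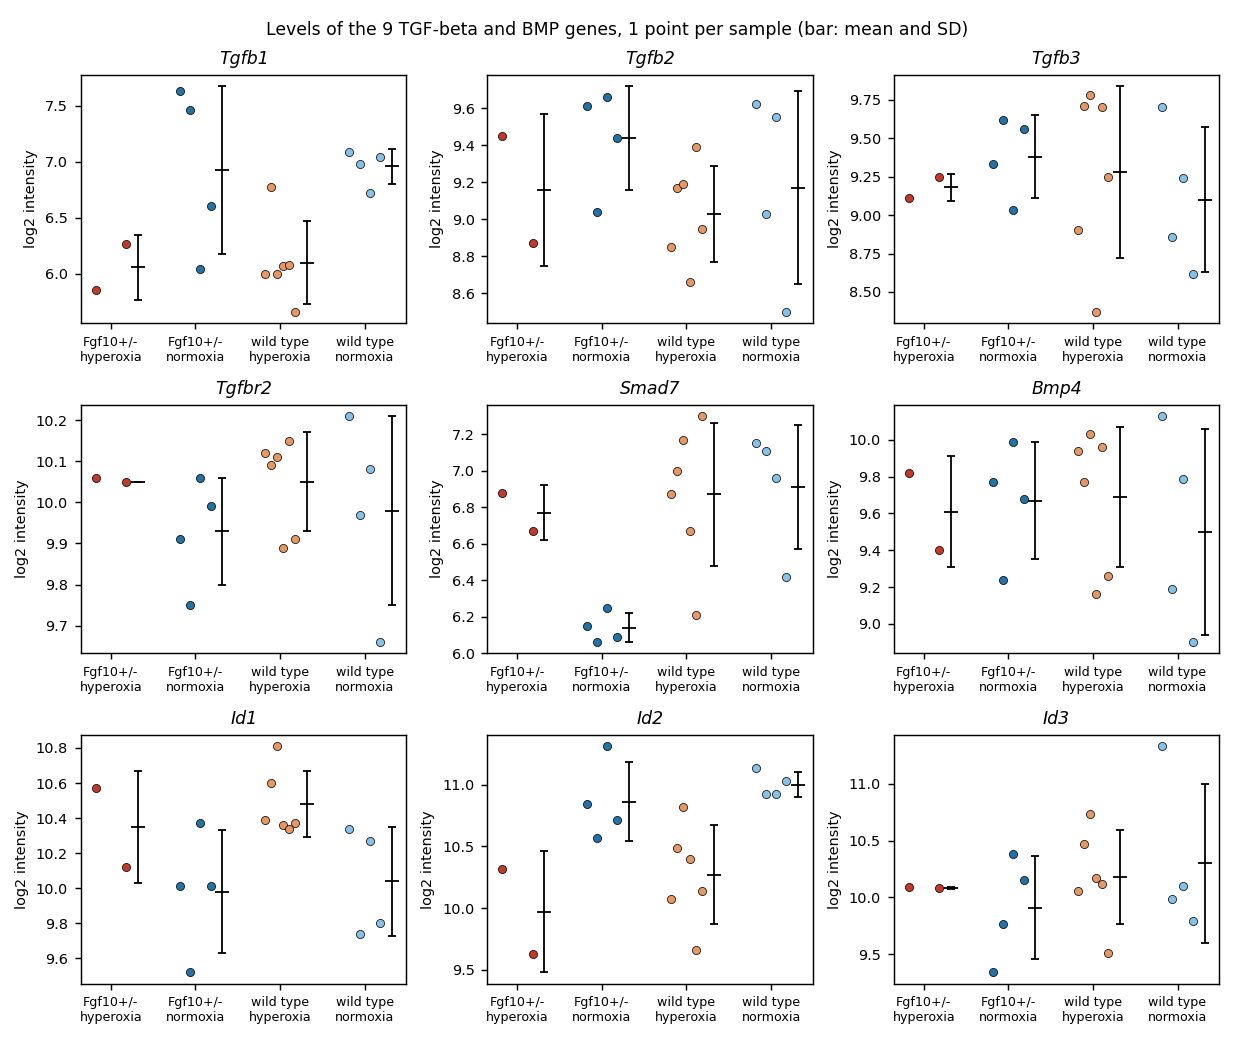
Log2 intensity of each of the 9 genes, 1 panel a gene, with 1 point per sample in the 4 groups and a bar for the mean and SD. Id2 and Tgfb1 sit lower in the hyperoxia groups, and the 4 Fgf10+/- normoxia samples of Smad7, at 6.06 to 6.25, lie below the 4 wild-type normoxia samples.

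Tgfb1, the TGF-beta ligand made most widely, by immune and stromal cells among others, passed the test in the mean of both genotypes and in neither genotype alone. Its levels were 5.86 and 6.27 in Fgf10+/- hyperoxia, against 7.63, 7.46, 6.04 and 6.61 in Fgf10+/- normoxia. In wild type they ran from 5.66 to 6.78 with a median of 6.04 in hyperoxia, against 7.09, 6.98, 6.72 and 7.04 in normoxia. The groups overlapped in both genotypes, through Fgf10+/- normoxia replicate 3 and through wild-type hyperoxia replicate 2, which was the highest of its group. The mean level was 6.06 ± 0.29 in Fgf10+/- hyperoxia (SD, n = 2) and 6.93 ± 0.75 in Fgf10+/- normoxia (SD, n = 4), a log2 difference of -0.87 (SE 0.38, limma adjusted p = 0.259). It was 6.10 ± 0.37 in wild-type hyperoxia (SD, n = 6) and 6.96 ± 0.16 in wild-type normoxia (SD, n = 4), a log2 difference of -0.86 (SE 0.28, limma adjusted p = 0.115). The interaction of -0.01 had a 95% interval of -1.01 to 0.99. As the mean of both genotypes Tgfb1 was 1.82-fold lower (log2 difference -0.87, SE 0.24, 95% interval -1.37 to -0.37, limma with Benjamini-Hochberg adjusted p = 0.0269).

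The T cell, NK cell and thymocyte markers were also lower in hyperoxia, 9 of 9 of them, with 2 called (median log2 difference -1.40). Over all genes 11713 of 20725 were lower and 6.14% fell. The 2 highest samples of Tgfb1, Fgf10+/- normoxia replicates 1 and 2, had marker means of 6.91 and 7.64, and the lowest Fgf10+/- normoxia sample, replicate 3, had 4.70. The sample highest in the list, wild-type normoxia replicate 4 at 7.76, had Tgfb1 at 7.04, beside 7.09 in wild-type normoxia replicate 1 at a list mean of 5.89 and 6.72 in replicate 3 at 4.96. Without the 4 libraries highest in this list (Fgf10+/- normoxia replicates 1, 2 and 4 and wild-type normoxia replicate 4) the mean difference of Tgfb1 was -0.40 (limma adjusted p = 0.404), and with the marker mean as a covariate it was -0.47 (adjusted p = 0.347). Both settings were chosen after the data were seen. All 4 left-out libraries were from normoxia and held the 2 highest Tgfb1 values, and the list means in hyperoxia were 4.37 to 5.29. The list and the oxygen condition thus went together, and their parts in the Tgfb1 values cannot be told apart. Within Fgf10+/-, leaving out the 3 such libraries left 1 normoxia sample, whose spread was taken from the other groups, and the difference was 0.03 (adjusted p = 0.993), against -0.87 with them. In the same fit of 12 samples, which leaves out 1 wild-type library, the difference within wild type was -0.83. The call was also lost without Fgf10+/- hyperoxia replicate 1 (-0.76, adjusted p = 0.135), without Fgf10+/- hyperoxia replicate 2 (-0.97, adjusted p = 0.0629) and without Fgf10+/- normoxia replicate 2 (-0.78, adjusted p = 0.0512), and with each array centred on its median (-0.76, adjusted p = 0.0531).

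**Figure D3:**
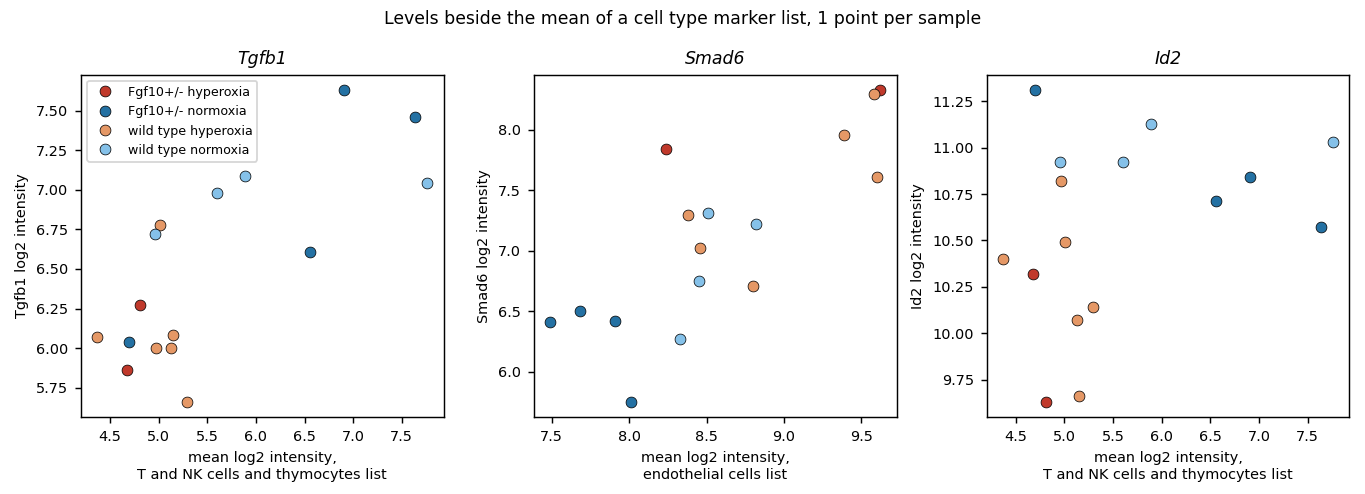
Log2 intensity of Tgfb1, Smad6 and Id2 (vertical axes) beside the mean log2 intensity of a marker list (horizontal axes), with 1 point per sample coloured by group. The samples with T cell list means of 6.56 or more are all from normoxia and hold the 2 highest Tgfb1 values, and those with endothelial list means of 9.39 or more are all from hyperoxia.

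Tgfb1 and Tgfb3 were each measured by 10 features. For Tgfb1 all 10 features were lower in hyperoxia, by -1.06 to -0.31 in Fgf10+/-, by -1.03 to -0.37 in wild type and by -1.02 to -0.41 in the mean of both genotypes. Adjusted over all features, 6 of the 10 were called in the mean, 1 in Fgf10+/- and 2 in wild type. The share of all features called in this way is not given here. In the fit over genes, with 1 feature per gene, 11.1%, 2.45% and 3.13% of all genes were called in these 3 comparisons. Those shares come from another fit and are no baseline for the feature counts. After each feature was centred on its own mean, the SD between the 10 features on an array had a median of 0.22. Whether the 10 features are 1 probe printed repeatedly or several is not known, so they are no replicates of the condition.

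For Tgfb3, the ligand known for its part in palate fusion and lung maturation, the 10 features differed in sign between the genotypes. All 10 were lower in hyperoxia in Fgf10+/- (-0.32 to -0.05) and all 10 were higher in wild type (0.18 to 0.49), with 0 called in either. The features read the same RNA, so their number adds no samples to the comparison of genotypes, and the interaction for the brightest feature was -0.39 with a 95% interval of -1.38 to 0.61. Its levels were 9.11 and 9.25 in Fgf10+/- hyperoxia, against 9.33, 9.62, 9.03 and 9.56 in Fgf10+/- normoxia. In wild type they ran from 8.37 to 9.78 with a median of 9.47 in hyperoxia, against 9.70, 8.86, 9.24 and 8.62 in normoxia. The wild-type samples thus spanned more than 1 log2 unit within each oxygen condition, and the mean of both genotypes differed by -0.01 (95% interval -0.51 to 0.49, limma adjusted p = 0.983).

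**Figure D4:**
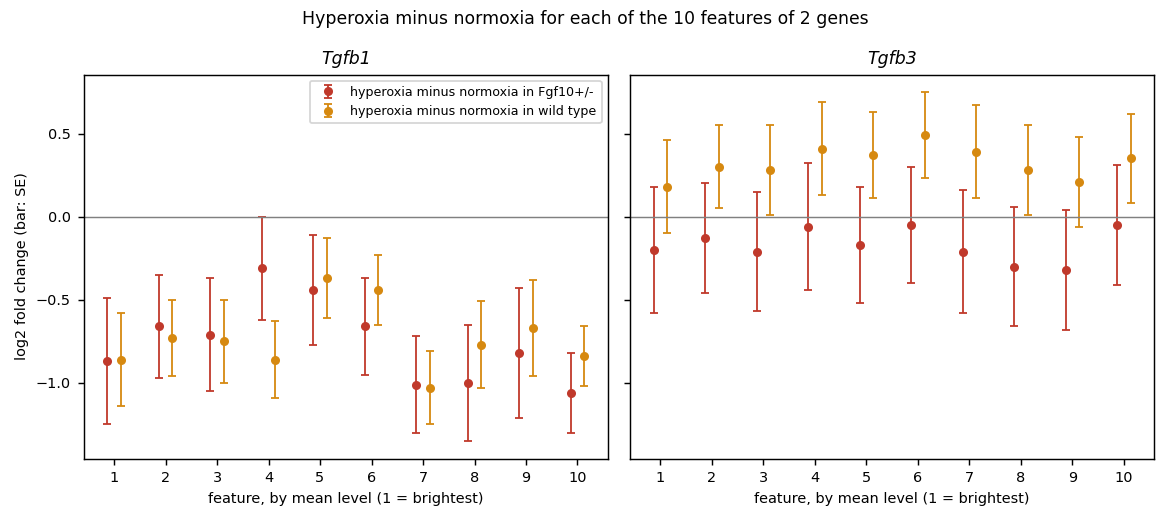
Log2 difference, hyperoxia minus normoxia, with its SE for each of the 10 features of Tgfb1 and of Tgfb3, ordered by mean level, in Fgf10+/- and in wild type. All points of Tgfb1 lie below 0, while the points of Tgfb3 lie below 0 in Fgf10+/- and above 0 in wild type.

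The remaining ligands and the receptor did not pass the test in either genotype. Tgfb2, a ligand of epithelium and mesenchyme whose loss in mice impairs lung development, had levels of 9.45 and 8.87 in Fgf10+/- hyperoxia, against 9.61, 9.04, 9.66 and 9.44 in Fgf10+/- normoxia. In wild type its levels ran from 8.66 to 9.39 with a median of 9.06 in hyperoxia, against 9.62, 9.03, 9.55 and 8.50 in normoxia. The mean of both genotypes differed by -0.21 (95% interval -0.62 to 0.21, limma adjusted p = 0.562), and a second, dimmer feature gave -0.15. Bmp4, a BMP ligand of the distal lung mesenchyme and epithelium, had levels of 9.82 and 9.40 in Fgf10+/- hyperoxia, against 9.77, 9.24, 9.99 and 9.68 in Fgf10+/- normoxia. Its wild-type levels ran from 9.16 to 10.03 with a median of 9.86 in hyperoxia, against 10.13, 9.19, 9.79 and 8.90 in normoxia. The Bmp4 groups overlapped throughout, with a mean difference of 0.06 (95% interval -0.40 to 0.52, limma adjusted p = 0.902), and a second feature, dim at a mean of 3.66, gave -0.24.

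Tgfbr2, the type II receptor that binds the TGF-beta ligands first, varied least of the 9 genes. Its levels were 10.06 and 10.05 in Fgf10+/- hyperoxia, against 9.91, 9.75, 10.06 and 9.99 in Fgf10+/- normoxia. In wild type they ran from 9.89 to 10.15 with a median of 10.10 in hyperoxia, against 10.21, 9.97, 10.08 and 9.66 in normoxia. The 4 group means spanned 0.12, less than the pooled SD of 0.15, and the mean of both genotypes differed by 0.10 (95% interval -0.17 to 0.37, limma adjusted p = 0.692), with -0.02 from a second feature.

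Smad7, the inhibitory Smad that TGF-beta and BMP signals both induce, was the 1 gene of the 9 whose levels separated the genotypes in normoxia. Its levels were 6.15, 6.06, 6.25 and 6.09 in Fgf10+/- normoxia, against 7.15, 7.11, 6.96 and 6.42 in wild-type normoxia. All 4 Fgf10+/- samples lay below all 4 wild-type samples, which 2.04% of all genes did, and 1 of 9 genes was apart in this way. The mean was 6.14 ± 0.08 in Fgf10+/- normoxia and 6.91 ± 0.34 in wild-type normoxia (SD, n = 4 each), a log2 difference of -0.77 (SE 0.23, 95% interval -1.26 to -0.28, 1.71-fold lower). Its unadjusted p was 0.00435, and it did not pass the adjustment over all genes (limma adjusted p = 0.546). In hyperoxia the levels were 6.88 and 6.67 in Fgf10+/-, against a range of 6.21 to 7.30 with a median of 6.94 in wild type, so the genotypes overlapped there.

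Within Fgf10+/-, both hyperoxia samples of Smad7 lay above all 4 normoxia samples, as 12.4% of all genes did. The log2 difference was 0.63 (SE 0.29, 95% interval 0.03 to 1.24, limma adjusted p = 0.274), from means of 6.77 ± 0.15 in hyperoxia (SD, n = 2) and 6.14 ± 0.08 in normoxia (SD, n = 4). In wild type it was -0.04 (95% interval -0.49 to 0.41, limma adjusted p = 0.95), and the interaction of 0.67 had an unadjusted p of 0.0771 (95% interval -0.08 to 1.42). The 2 comparisons share the 4 Fgf10+/- normoxia samples, so the lower level against wild type and the higher level in hyperoxia rest on the same values. Endothelial markers were also lowest in these samples, with a mean over 10 genes of 7.49 to 8.01 in Fgf10+/- normoxia against 8.33 to 8.82 in wild-type normoxia, and their part in the Smad7 values was not tested.

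None of the other 8 genes had groups that separated the genotypes. In normoxia 0 of 9 genes were called by limma, where 0.00965% of all genes were, and Smad7 was the only 1 of 9 with an unadjusted p under 0.05 (6.03% of all genes). The differences of the other 8 genes ran from -0.39 for Id3 to 0.28 for Tgfb3, with overlapping groups. In hyperoxia, where Fgf10+/- had 2 samples, 0 of 9 genes were called by limma and 0 had an unadjusted p under 0.05, where 0.0% and 4.37% of all genes did. These differences ran from -0.29 for Id2 to 0.13 for Tgfb2. The test of the interaction, whether hyperoxia acted differently in Fgf10+/- than in wild type, called 0 of 9 genes and 0.00965% of all genes, and 0 of the 9 had an unadjusted p under 0.05 (4.11% of all genes).

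Tgfb1 and Id2 had the same order of group means. Both ran from wild-type normoxia, the highest, through Fgf10+/- normoxia and wild-type hyperoxia to Fgf10+/- hyperoxia, with a span of 0.90 against a pooled SD of 0.46 for Tgfb1 and of 1.03 against 0.34 for Id2. In each, the neighbours within an oxygen condition did not differ beyond their spread. For Id1 the order was wild-type hyperoxia, Fgf10+/- hyperoxia, wild-type normoxia and Fgf10+/- normoxia, with a span of 0.50 against 0.28. For Smad7 it was wild-type normoxia, wild-type hyperoxia, Fgf10+/- hyperoxia and Fgf10+/- normoxia, with a span of 0.77 against 0.31, and the last overlapped wild-type hyperoxia while it lay below the other 2 groups. The span was 0.41 against a pooled SD of 0.36 for Tgfb2, and below the pooled SD for Tgfb3 (0.28 against 0.45), Bmp4 (0.19 against 0.41), Tgfbr2 and Id3 (0.39 against 0.49).

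Around these 9 genes, a list of 83 pathway genes that includes them was sorted into 9 roles, and 81 were measured. As the mean of both genotypes, hyperoxia raised 7 and lowered 5 of the 81, with a median log2 difference of -0.04, beside 4.97% and 6.14% of all genes. The 7 that rose were Acvrl1, Eng, Smad6, Gdf15, Ltbp2, Snai2 and Tagln, and the 5 that fell were Tgfb1, Ltbp3, Grem1, Id2 and Junb. In Fgf10+/- alone 3 rose, Smad6, Acvrl1 and Gdf15, and 0 fell, where 1.18% of all genes rose. In wild type alone limma called 0 of 81, where it called 3.13% of all genes, and 16 had an unadjusted p under 0.05 (18.2% of all genes). None of the 81 was called between genotypes in either oxygen condition, with 1 gene in hyperoxia (4.37% of all genes) and 12 in normoxia (6.03% of all genes) at an unadjusted p under 0.05 in limma. Leaving out 1 sample at a time kept the call of the mean in 16 of 16 fits for Smad6 and Gdf15, 15 for Acvrl1, Eng and Snai2, 14 for Junb, 11 for Tagln, 6 for Ltbp2, 3 for Ltbp3 and 2 for Grem1. Without Fgf10+/- hyperoxia replicate 2 the difference was 1.16 for Acvrl1 (limma adjusted p = 0.0507) and 0.70 for Eng (adjusted p = 0.135), and in Fgf10+/- alone the call held in 3 of 6 such fits for Smad6 and in 2 of 6 for Acvrl1 and for Gdf15.

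Among the receptors 2 of 12 rose and 0 fell (4.97% and 6.14% of all genes), and both were of the branch that endothelial cells use. Acvrl1, the type I receptor ALK1, had levels of 9.41 and 10.38 in Fgf10+/- hyperoxia, against 8.50, 7.87, 7.93 and 7.42 in Fgf10+/- normoxia. In wild type its levels ran from 8.87 to 10.73 with a median of 9.65 in hyperoxia, against 8.85, 9.26, 8.75 and 8.52 in normoxia. The Fgf10+/- groups did not overlap, with hyperoxia higher, as was so for 12.4% of all genes, and the wild-type groups overlapped. The mean of both genotypes was 2.65-fold higher (log2 difference 1.41, SE 0.28, limma adjusted p = 0.00459). Eng, the accessory receptor endoglin, had levels of 7.29 and 8.33 in Fgf10+/- hyperoxia, against 6.62, 6.67, 6.34 and 6.23 in Fgf10+/- normoxia. In wild type its levels ran from 6.93 to 8.38 with a median of 7.93 in hyperoxia, against 7.56, 7.09, 7.26 and 6.98 in normoxia. Eng too overlapped in wild type, and its mean difference was 0.96 (SE 0.23, limma adjusted p = 0.0149).

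The signal-carrying Smad genes gave 0 calls of 6 (11.1% of all genes), with differences of -0.18 to 0.22. Among them were -0.08 for Smad3 of the TGF-beta branch and -0.10 for the shared partner Smad4. Of the inhibitory Smads, Smurfs and corepressors 1 of 9 rose (4.97% of all genes). That gene was Smad6, the inhibitory Smad that acts mainly on BMP receptors. Its levels were 7.84 and 8.33 in Fgf10+/- hyperoxia, against 5.75, 6.42, 6.50 and 6.41 in Fgf10+/- normoxia. In wild type they ran from 6.71 to 8.30 with a median of 7.46 in hyperoxia, against 6.75, 7.22, 7.31 and 6.27 in normoxia. Smad6 was thus apart between oxygen conditions in Fgf10+/-, with hyperoxia higher, as 12.4% of all genes were (log2 difference 1.82, SE 0.40, 3.52-fold, limma adjusted p = 0.0263). It overlapped in wild type (0.60, SE 0.30, adjusted p = 0.309). The interaction was 1.22 with an unadjusted p of 0.0275 and was not called. As the mean of both genotypes it was 2.31-fold higher (log2 difference 1.21, SE 0.25, limma adjusted p = 0.00584), where its relative Smad7 differed by 0.30 (95% interval -0.08 to 0.67, adjusted p = 0.325).

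Endothelial markers moved the same way as Acvrl1, Eng and Smad6. Of 10 markers, 4 rose and 0 fell in the mean of both genotypes (4.97% and 6.14% of all genes). Of the 10, 9 were higher (9012 of 20725 genes), and the median log2 difference was 0.78. The list mean was 8.24 and 9.62 in Fgf10+/- hyperoxia, against 8.01, 7.91, 7.68 and 7.49 in Fgf10+/- normoxia, and 8.38 to 9.60 in wild-type hyperoxia, against 8.33 to 8.82 in wild-type normoxia. The part of endothelial RNA in these 3 genes was not tested. T cell and thymocyte markers moved the opposite way, and without the 4 libraries highest in them the differences were 0.99 for Smad6 (adjusted p = 0.146) and 1.35 for Acvrl1 (adjusted p = 0.103), both in limma fits of 12 samples.

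Among the ligands and their latency proteins, Gdf15 and Ltbp2 rose and Tgfb1 and Ltbp3 fell. Gdf15, a stress-induced member of the TGF-beta superfamily, had levels of 7.39 and 7.91 in Fgf10+/- hyperoxia, against 6.22, 6.42, 6.39 and 5.94 in Fgf10+/- normoxia. In wild type its levels ran from 7.78 to 9.03 with a median of 8.32 in hyperoxia, against 8.36, 7.79, 7.30 and 7.55 in normoxia. The mean of both genotypes was 2.02-fold higher (log2 difference 1.01, SE 0.21, limma adjusted p = 0.00493), and in Fgf10+/- alone the difference was 1.41 (SE 0.33, adjusted p = 0.0335). All 4 Fgf10+/- normoxia samples of Gdf15 lay below the 4 wild-type normoxia samples, as 2.04% of all genes did (log2 difference -1.51, SE 0.27, limma adjusted p = 0.0952). Ltbp2, a latent TGF-beta binding protein of elastic fibres, differed by 1.46 (SE 0.43, limma adjusted p = 0.0362), and Ltbp3, which helps to secrete latent TGF-beta, by -0.52 (SE 0.16, adjusted p = 0.0485). Of the 3 activin and inhibin genes limma called 0, with -0.41 for Inhbb and -0.33 for Inhba, which encode activin subunits.

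Of 11 TGF-beta target genes, 10 were higher in hyperoxia and 2 of these were called, with a median log2 difference of 0.63, where 9012 of 20725 genes were higher and 4.97% rose. The list shares Acta2 and Tagln with the smooth muscle markers and Col1a1 and Col3a1 with the fibroblast markers, so it is not separate from them. Snai2, a transcription factor of mesenchymal cells, had levels of 7.05 and 8.06 in Fgf10+/- hyperoxia, against 5.42, 5.01, 4.80 and 5.00 in Fgf10+/- normoxia. In wild type its levels ran from 6.03 to 8.34 with a median of 7.49 in hyperoxia, against 8.11, 5.37, 5.41 and 5.30 in normoxia. In Fgf10+/- the Snai2 groups did not overlap, with hyperoxia higher, as was so for 12.4% of all genes. The wild-type groups overlapped through wild-type normoxia replicate 1. The mean difference was 1.87 (SE 0.42, limma adjusted p = 0.00969), or 2.22 without that sample. Tagln, which encodes the smooth muscle protein transgelin, showed the same sample as the highest of all, at 12.78 in wild-type normoxia replicate 1 against 8.85 to 9.39 in the other 3, and its mean difference was 1.84 (SE 0.50, limma adjusted p = 0.0266), or 2.29 without it. The brightest genes of this role, Ccn2, a matricellular protein gene, and Col3a1, a fibrillar collagen gene, gave 0.16 and -0.09 in Fgf10+/- and 0.18 and 0.26 in wild type, without a call.

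Smooth muscle and pericyte markers were higher alongside Snai2, Tagln and Ltbp2: 8 of 10 were higher in hyperoxia, 2 of them called, with a median log2 difference of 0.97, and Tagln is itself 1 of the 10 and 1 of the 2 called. Of 10 fibroblast markers 7 were higher, 2 called, with a median of 0.15. Over all genes 9012 of 20725 were higher and 4.97% rose. The smooth muscle list mean was 7.74 and 7.79 in Fgf10+/- hyperoxia, against 6.25 to 7.23 in Fgf10+/- normoxia. In wild type it overlapped, at 7.52 to 8.41 in hyperoxia against 6.50 to 9.22 in normoxia, whose replicate 1 was the highest of the 16 samples, and its part in these 3 genes was not tested. Junb, an immediate early gene and the 1 target that fell, differed by -0.93 (SE 0.24, limma adjusted p = 0.0211). Of the 8 BMP target genes 1 fell, Id2, with a median of -0.35 over the 8, where 6.14% of all genes fell. Of 11 extracellular antagonists 1 fell, the BMP antagonist Grem1 (-0.58, SE 0.18, limma adjusted p = 0.0497), whose levels of 2.96 to 4.39 lay near or below the median of all array values, 4.34.

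**Figure D5:**
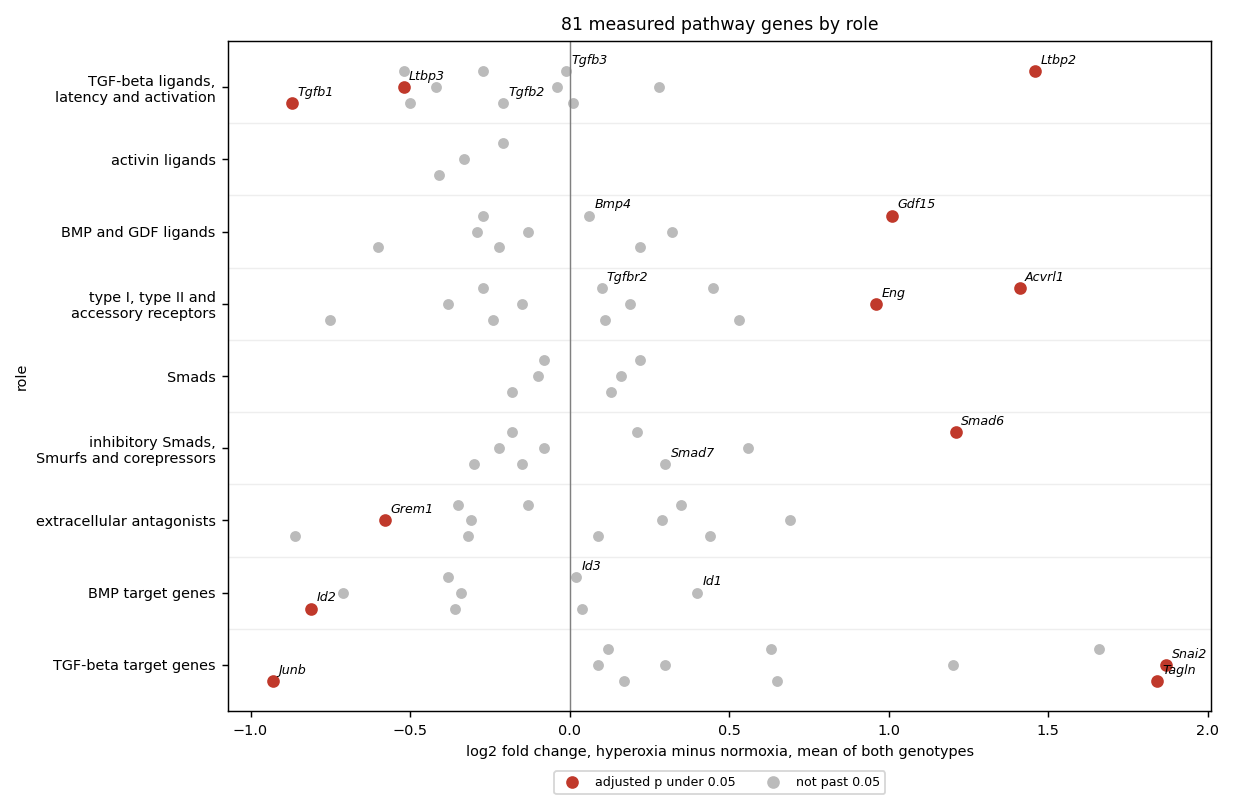
Log2 difference, hyperoxia minus normoxia as the mean of both genotypes, for the 81 measured pathway genes in 9 rows by role. Red points are the 12 genes with an adjusted p under 0.05 and the 9 genes are labelled with them; Tgfb1 and Id2 are the 2 of the 9 in red.

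The genes whose levels followed each of the 9 most closely over the 16 samples were ranked by Pearson's r. Ranked were genes with a mean of at least 6, without predicted or clone-named symbols (Gm or LOC numbers, Rik). The closest 2 are given as a description of samples that share their groups. For Id2 they were Tmed9 (r = 0.95) and Hsp90aa1 (r = 0.94), and for Tgfb1 Otud5 (r = 0.92) and Klf13 (r = 0.90). For Id1 they were Bcl2l2 (r = 0.89) and Lamp2 (r = 0.87), and for Id3 Acbd4 (r = 0.89) and Cst3 (r = 0.87). For Smad7 they were Oat (r = 0.85) and Usp32 (r = 0.83), for Tgfb2 Timp2 (r = 0.90) and Fstl3 (r = 0.89), and for Tgfb3 Myh10 (r = 0.86) and Hhip (r = 0.84). Bmp4 and Tgfbr2 had Tns1 in common, at r = 0.92 and r = 0.89, and followed each other at r = 0.85, while Dennd5a was the closest to Tgfbr2 (r = 0.90).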

How the data were processed

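The deposited values are log2 intensities of 1-colour Cy3 arrays, with 1 value for each feature and sample; the unit was read off their range, -0.4 to 15.98. The authors had already normalized the deposited table, since at any rank the sorted arrays lay within 0.2 of each other. The sources used here do not name the software, the background correction or the log base, and they hold no detection flags, slides or scan dates. Of 62976 features, 65 with a missing value were left out. Symbols were updated through RefSeq gene tables (GRCm38.p6), giving 31439 named features of 20725 genes. Part of the pathway list is not reported here.

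Groups followed the sample titles, which give 2, 6, 4 and 4 samples where the series text gives 4 per group. The reason for the mismatch is not known, and every comparison with a hyperoxia group rests on the titles for its genotype. The limma package (3.58.1, with R 4.3.3) fitted 4 group means over the 16 samples by lmFit and eBayes, without the replicate number as a block. P-values were adjusted by the Benjamini-Hochberg method over all genes, and a gene was called under 0.05. The fit was tested on simulated data. The 9 genes, the pathway list and the marker lists were chosen with earlier results of these data known. Named were the 9 genes, every called pathway gene and the 2 brightest of a role with none called. For each of the 9, the 2 genes with the highest r among those ranked were also named. The number of arrays limits the precision.

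The alternatives were median centring, quantile normalization, leaving out genes with a mean under 6, the mean of all features, limma-trend, array weights, only the 2 groups compared, a replicate block, and leaving out each sample. Chosen after the data were seen were a fit without the 4 libraries highest in T cell and thymocyte markers and a fit with that list's mean as a covariate.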

Additional observations from a re-analysis of the deposited data

Results flagged for a closer look

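Of 57 sets of samples (19 genes, each in the 3 groups with 4 or more samples), 5 held a sample whose gap to its nearest neighbour was a large part of the group's range; chance gives about 1 in 20. Tgfb1 in wild-type hyperoxia had replicate 2 at 6.78, with a gap over range of 0.628 in a group of 5.66 to 6.78. Smad6 in Fgf10+/- normoxia had replicate 1 at 5.75 (0.885, group 5.75 to 6.50), and Grem1 in wild-type hyperoxia had replicate 5 at 2.96 (0.627, group 2.96 to 3.67), a level near the bottom of the scale. Tagln and Snai2, genes of smooth muscle and mesenchymal cells, both had wild-type normoxia replicate 1 as the highest. Its values were 12.78 (0.862, group 8.85 to 12.78) and 8.11 (0.961, group 5.30 to 8.11). This sample also stood apart in the means of the smooth muscle and fibroblast markers.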

How the results depend on the processing

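In the mean of both genotypes, the 2 calls among the 9 genes became 1 with median centring, where limma no longer called Tgfb1, 1 with the replicate block, where Id2 had -0.67 (adjusted p = 0.0509), 1 with the T cell list mean as a covariate and 0 without the 4 libraries highest in that list. They ranged from 0 to 2 over the fits that leave out 1 sample. In wild type the 0 calls became 2 with genes of a mean under 6 left out (Id2, adjusted p = 0.0307, and Tgfb1, adjusted p = 0.0474) and 1 with limma-trend (Id2, adjusted p = 0.0423), and ranged from 0 to 1 with 1 sample left out. Of the pathway genes, 12 calls in the mean of both genotypes became 0 without the 4 libraries and 6 with the covariate, and ranged from 4 to 15 with 1 sample left out. The 3 calls in Fgf10+/- became 6 with dim genes left out, 6 with limma-trend, 5 with array weights, and 0 with the replicate block, without the 4 libraries or with the covariate (0 to 3 with 1 sample left out). The 0 calls in wild type became 3 with dim genes left out, 3 with limma-trend, and 1 with array weights, only the 2 groups, without the 4 libraries or with the covariate (0 to 6 with 1 sample left out, 6 without wild-type normoxia replicate 1). Between genotypes in normoxia the 0 calls became 1 with dim genes left out, limma-trend or array weights. Fewer genes tested, and fewer samples in the fit without the 4 libraries, follow from how those settings are built; the cause of the other changes was not tested. No called difference changed sign. Over all genes, the 2302 calls of the mean became 1380 with the replicate block, 1179 and 1183 without Fgf10+/- hyperoxia replicate 1 or 2, 467 without the 4 libraries and 1105 with the covariate.

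Same-numbered samples of different groups correlated in their deviations from the group means at -0.16 to 0.24 over 18 pairs. Their median was 0.04, with 4 above 0.1. Differently numbered samples gave -0.35 to 0.27 over 74 pairs (median -0.01), with 9 above 0.1. The ranges overlapped, so these correlations do not decide whether a shared number marks samples handled together. The main fit left the replicate number out, and results with the replicate block are given in this section only. With 2 Fgf10+/- hyperoxia samples, every comparison of that group rests on few values, and without detection flags a dim level cannot be told from background.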

Other observations

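The remaining marker lists describe the epithelium and the blood-derived cells in the same samples, as the mean of the hyperoxia minus normoxia differences in both genotypes. Over all genes 4.97% rose, 6.14% fell and 11713 of 20725 were lower in that mean. Of 13 AT2 markers limma called 0, while 11 were lower (median log2 difference -0.32), and Sftpc, the surfactant protein C gene, lay at the ceiling of the scale in every sample. Of 6 club cell markers, the secretory cells of the airway, 1 fell and 6 were lower (median -0.25), and the list mean was 12.45 to 13.53 in Fgf10+/- hyperoxia, against 13.59 to 14.47 in Fgf10+/- normoxia, and 11.48 to 14.37 in wild-type hyperoxia, against 12.68 to 14.54 in wild-type normoxia. Of 6 ciliated cell markers limma called 0 and 6 were lower (median -0.34). Of 10 macrophage and granulocyte markers 2 rose and 1 fell (median 0.42), and the list mean was 7.77 to 7.86 in Fgf10+/- hyperoxia against 7.34 to 7.46 in Fgf10+/- normoxia, and 7.97 to 9.13 in wild-type hyperoxia against 7.18 to 8.23 in wild-type normoxia. For the 3 erythroid and the 8 AT1 markers limma made 0 calls. The part of these cells in the 9 pathway genes was not tested.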
